A study of Mus musculus with 31 samples.

Results

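The ErbB receptors and their EGF-like ligands were examined as 10 genes of the 55379 in the count table, the receptors *Egfr*, *Erbb2*, *Erbb3* and *Erbb4* and the ligands *Egf*, *Areg*, *Hbegf*, *Tgfa*, *Btc* and *Nrg4*. They were matched by gene symbol. The study asked how fluoxetine, a selective serotonin reuptake inhibitor, and dietary folic acid (FA) act on the lactating mammary gland, each alone and combined. RNA-seq libraries came from the mammary glands of 31 C57BL/6J dams, 1 library per dam, collected on lactation day 10. Dams were first bred at 6 weeks of age and had been on their diet from 2 weeks before mating. Breeder diet held 4 mg/kg FA and FA diet held 24 mg/kg FA. From embryonic day 13 to the collection on lactation day 10, dams were injected with saline or with 20 mg/kg/d fluoxetine. The labels gave 8 breeder diet + saline dams, 7 breeder diet + fluoxetine dams, 8 FA diet + saline dams and 8 FA diet + fluoxetine dams. The paper gives the sizes of the fluoxetine groups the other way round, and the labels were followed.

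ErbB proteins are receptor tyrosine kinases of the cell surface that pair up when a ligand binds, and the pair passes the signal to the Ras-MAPK and PI3K-AKT cascades. Erbb2 has no known ligand of its own and acts as the preferred partner of the other receptors, whereas Erbb3 binds neuregulins but has a weak kinase and signals through its partner. EGF, amphiregulin, heparin-binding EGF, TGF-alpha and betacellulin are made as membrane proteins and freed by the protease Adam17 or by other proteases. In the mammary gland, amphiregulin is known for duct growth in puberty, Erbb4 for the differentiation of the secretory epithelium in late pregnancy and lactation through Stat5, and EGF as a growth factor of milk.

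Total counts per library ran from 15412542 to 36000439, with a median of 22299952. The caseins, *Wap* and *Lalba* held most counts in all but 2 glands. The 20 most abundant genes held a median of 76.7% of counts with saline and 77.0% with fluoxetine on breeder diet, and 79.2% and 76.9% on FA diet. All 8 markers of secretory epithelium were present in every dam, with *Wap*, a whey protein, between 14614 and 296055 CPM. CPM values are scaled by the trimmed mean of M-values (TMM).

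Libraries of 2 dams stood farthest apart in milk transcripts, and the results that were seen to rest on them are given with and without them. In FA diet + fluoxetine dam 3 the 20 most abundant genes held 39.3% of counts, the caseins, *Wap* and *Lalba* held 17.4%, and the TMM factor was 3.04. The 8 secretory markers summed to 39989 CPM in that dam, against a median of 513308 CPM over the other 29 dams that did not stand apart. Its fibroblast markers summed to 937 CPM against 125 CPM, its macrophage markers to 158 CPM against 24.0 CPM and its adipocyte markers to 931 CPM against 387 CPM. In breeder diet + fluoxetine dam 13 the shares were 60.5% and 48.6%, the TMM factor was 1.57 and the secretory markers summed to 215273 CPM. FA diet + saline dam 3 had the lowest share of the 20 most abundant genes (70.1%) and the lowest sum of secretory markers (321210 CPM) of its group. FA diet + saline dam 11 differed from the other dams of its group by a chi-square per degree of freedom of 260.0 to 418, more than breeder diet + fluoxetine dam 13 did (157 to 313). Leaving out either of these FA diet + saline dams alone reversed no log2 value of a member. What the tissue makeup of these glands had to do with their ErbB transcripts was not tested. In bulk tissue, fewer cells of a type and less RNA per cell cannot be told apart.

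Per transcript length, *Egf* and *Erbb3* were the most abundant of the 10 genes and the other ligands were far lower. *Egf* (chr3:129470410-129549093, GRCm39) had a median of 10.8 TPM over the 31 dams, with a range of 2.11 to 22.6 TPM. *Erbb3* (chr10:128403392-128425811) had a median of 8.15 TPM, from 2.25 to 19.8 TPM, and lay below *Egf* in 26 of 31 dams. *Erbb2* (chr11:98303203-98328542) followed with 2.84 TPM, from 0.730 to 24.0 TPM, and *Egfr* (chr11:16702198-16868158), the receptor that binds EGF itself, with 0.943 TPM, from 0.317 to 2.43 TPM. The upper ends for *Erbb2* and *Egfr* and the lower end for *Egf* were FA diet + fluoxetine dam 3, and without both libraries that stood apart they were 4.08, 1.35 and 4.71 TPM. The upper end for *Erbb3* was that dam as well, and it was 17.2 TPM without both libraries. In CPM after TMM that dam was not the highest for *Egfr* or *Erbb3*. It had 5.16 CPM of *Egfr*, with 12 dams above it, and 22.8 CPM of *Erbb3*, with 17 dams above it. The order of these receptors was steady: *Erbb3* was above *Erbb2* in 30 of 31 dams and *Erbb2* above *Egfr* in all 31. The exception to the former was FA diet + fluoxetine dam 3.

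*Erbb4* (chr1:68071345-69147619) was the rarest receptor, with a median of 0.186 TPM and a highest value of 0.477 TPM. *Hbegf* (chr18:36637980-36649677), which encodes heparin-binding EGF, lay at 0.393 TPM, and *Nrg4* (chr9:55121336-55234128), a neuregulin known as a ligand of Erbb4 and as a product of fat tissue, lay at 0.165 TPM. *Hbegf* was above *Erbb4* in 25 of 31 dams. *Erbb4* was above *Nrg4* in 16 dams and below it in 15, so the order of that pair could not be given, and it was turned when the longest transcript was used as the length. Of the TPM of the 4 receptors together, *Erbb3* made up a median of 66.9%, *Erbb2* 21.2%, *Egfr* 7.23% and *Erbb4* 1.86%. Of the TPM of the 6 ligands, *Egf* made up a median of 94.1%, and never under 88.8% in the 29 dams that did not stand apart.

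**Figure D1:**
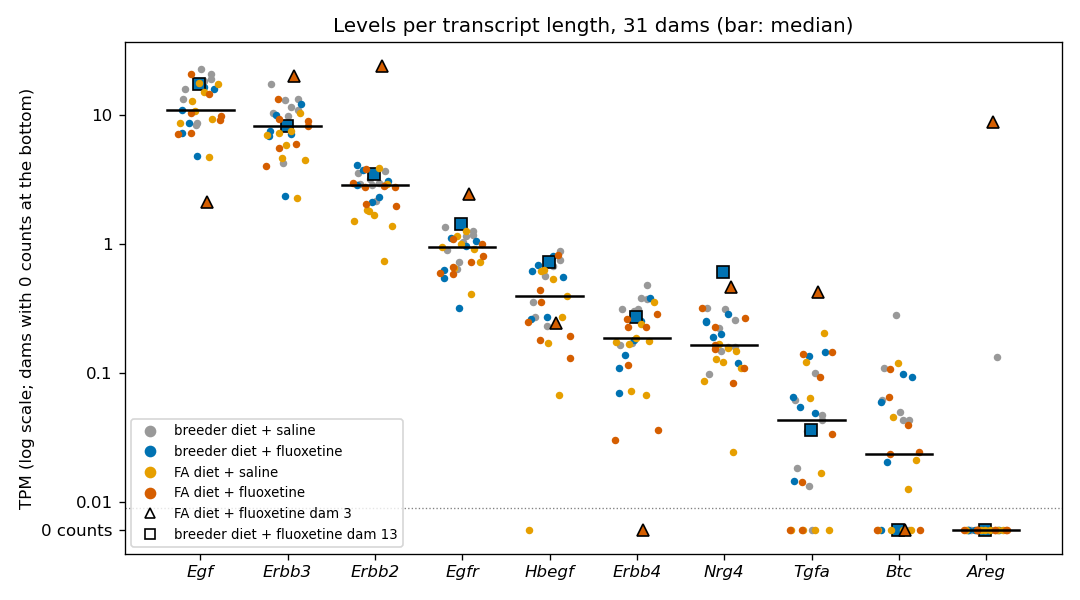
TPM of the 10 genes on a log scale in the 31 dams, 1 point per dam in the colour of its group, with the median as a bar and dams with 0 counts below the dotted line. *Egf* and *Erbb3* lead with medians of 10.8 and 8.15 TPM, and FA diet + fluoxetine dam 3 (triangle) is the highest dam for *Erbb2* and *Areg* and the lowest for *Egf*.

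Amphiregulin, TGF-alpha and betacellulin were barely transcribed at lactation day 10, and their genes did not pass the low-count filter. *Areg* (chr5:91287451-91296291) had 113 counts in all libraries together. Of these, 112 counts lay in FA diet + fluoxetine dam 3 and 1 count in breeder diet + saline dam 2, and the other 29 dams had 0 counts. With 0 counts taken as up to 3 counts per library, those 29 dams lay under 0.0953 to 0.243 CPM, and the 1.96 CPM of FA diet + fluoxetine dam 3 were at least 8.07-fold higher than in any of them. In that gland *Areg* made up 73.0% of the ligand TPM and *Egf* 17.6%, or 58.0% and 29.9% with the longest transcript as the length. *Tgfa* (chr6:86172041-86252728) had 142 counts, was at 0 in 7 dams and reached 0.807 CPM at most, and it shares exonic sequence with *Gm43917* on the opposite strand. *Btc* (chr5:91505120-91550883) had 62 counts, was at 0 in 12 dams and reached 0.616 CPM at most. Such floors cover counting error only.

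The remaining ErbB ligands were low as well. *Nrg1* had 403 counts in all and *Nrg2* 344 counts, and both passed the filter. *Epgn*, the gene of epigen, had 43 counts and *Ereg*, the gene of epiregulin, had 5 counts. *Nrg3* had 0 counts in the 31 libraries.

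Among dams of a group, *Egfr* had the lowest biological coefficient of variation of the 7 members past the filter, 22.4%, against 35.3% for genes of its abundance. *Erbb2* (32.5% against 31.1%) and *Erbb3* (31.3% against 28.1%) varied about as much as genes of their abundance. With all dams *Egf* varied more, with 43.1% against 30.5%. Its standard deviation of log2 CPM within groups was 0.79, and 0.44 without the 2 libraries that stood apart, where *Erbb3* had 0.48. For *Erbb2* that standard deviation was 0.44 with them and 0.30 without them, as low as the 0.30 of *Egfr* without them. For the rare transcripts the values were 62.8% against 58.9% for *Erbb4*, 56.2% against 63.2% for *Hbegf* and 41.2% against 58.1% for *Nrg4*.

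Fluoxetine dams had less *Egfr* and *Egf* and more *Erbb2* and *Nrg4* transcript than saline dams on average, but these differences did not pass FDR 10%, and all groups overlapped. Of the 7 members tested, 0 were called by edgeR, against 3 of 14362 genes (0.0209%) in all. Those 3 genes, *Elovl6*, *Serhl* and *Pgm5*, are named after their values were seen. With an unadjusted p ≤ 0.05 there were 3 members, *Egfr*, *Erbb2* and *Nrg4*, against 1425 genes (9.92%). DESeq2 called 0 members and 79 genes, with 4 members and 1811 of 29436 genes (6.15%) at that unadjusted p. It was run without the low-count filter, so its share includes low-count genes. Its members at that p were counted only among the 7 past the filter. The likelihood ratio test called 0 members and 45 genes, with 3 members and 1423 of 14362 genes (9.91%) at that p. Without both libraries that stood apart there were 4 members at that p, with *Egf* added, against 1364 of 14401 genes (9.47%). The median log2 fold change was -0.15 over the 7 members and 0.02 over all genes tested.

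*Erbb2*, the shared partner of the family, lay at 4.78, 6.96 and 8.24 CPM (lowest, median, highest) in breeder diet + saline and at 4.86, 7.42 and 11 CPM in breeder diet + fluoxetine. On FA diet it lay at 4.19, 5.25 and 8.05 CPM with saline and at 6.07, 6.69 and 23.8 CPM with fluoxetine. All 8 FA diet + fluoxetine dams were above the median of FA diet + saline, 5 of them within the range of that group, and the highest was dam 3. Averaged over diets, the log2 fold change with fluoxetine was 0.46 (SE 0.17, 95% CI 0.12 to 0.79, adjusted p = 0.406). Of the 15 fluoxetine dams, 12 exceeded the saline median of their diet, and on breeder diet 4 of 7 did. The log2 fold change was 0.18 (SE 0.24) on breeder diet and, with dam 3 included, 0.74 (SE 0.23) on FA diet. Without FA diet + fluoxetine dam 3 the averaged log2 fold change was 0.26, and without both libraries that stood apart it was 0.31. *Erbb2* shares exonic sequence with *Mien1* on the opposite strand, and reads of both cannot be told apart here.

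*Egfr* was lower with fluoxetine on both diets by a small amount. On breeder diet it lay at 3.49, 4.84 and 6.21 CPM with saline and at 3.0, 4.26 and 5.51 CPM with fluoxetine. On FA diet it lay at 4.30, 5.35 and 6.74 CPM with saline and at 3.12, 4.61 and 5.55 CPM with fluoxetine. Only 3 of 15 fluoxetine dams were above the saline median of their diet, although the ranges overlapped. The log2 fold change was -0.26 (SE 0.12, 95% CI -0.50 to -0.02, adjusted p = 0.472), and -0.28 without both libraries that stood apart.

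*Erbb3* and *Erbb4*, the neuregulin receptors, differed less clearly. For *Erbb3* the log2 fold change was -0.15 (SE 0.16, adjusted p = 0.794), with 7 of 15 fluoxetine dams above the saline median of their diet, and it was -0.08 without FA diet + saline dam 5. *Erbb4* lay at 0.832, 1.70 and 2.51 CPM with saline and at 0.429, 0.890 and 2.02 CPM with fluoxetine on breeder diet, and at 0.467, 1.17 and 2.70 CPM and 0, 1.03 and 1.64 CPM on FA diet. FA diet + fluoxetine dam 3 had 0 counts of *Erbb4*, under 0.0521 CPM, where the median of all dams was 1.20 CPM, at least 23.0-fold higher. The *Erbb4* log2 fold change was -0.54 (SE 0.36, adjusted p = 0.624), with 5 of 15 fluoxetine dams above the saline median of their diet, and -0.41 without both libraries that stood apart.

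Among the ligands, *Egf* lay at 48.1, 79.8 and 113 CPM in breeder diet + saline and at 42.0, 54.7 and 87.1 CPM in breeder diet + fluoxetine. It lay at 57.3, 73.3 and 127 CPM in FA diet + saline and at 4.72, 52.3 and 112 CPM in FA diet + fluoxetine. On FA diet, 5 of 8 fluoxetine dams were below every saline dam. The dam at 4.72 CPM was dam 3, and the next lowest of its group had 48.2 CPM. The log2 fold change was -0.42 (SE 0.225, 95% CI -0.88 to 0.03, adjusted p = 0.536), with 3 of 15 fluoxetine dams above the saline median of their diet. Without both libraries that stood apart it was -0.32. *Egf* overlaps exons of the long noncoding RNAs *Gm42650* and *Gm42697* on the opposite strand.

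*Nrg4* lay at 0.554, 1.25 and 1.81 CPM in breeder diet + saline and at 0.710, 1.73 and 2.49 CPM in breeder diet + fluoxetine. On FA diet it lay at 0.485, 0.859 and 1.19 CPM with saline and at 0.488, 1.24 and 2.49 CPM with fluoxetine. With fluoxetine, 11 of 15 dams were above the saline median of their diet. The *Nrg4* log2 fold change was 0.54 (SE 0.23, 95% CI 0.07 to 1.0, adjusted p = 0.458). *Nrg4* shares exonic sequence with *Fbxo22*, so its counts carry the same uncertainty as those of *Erbb2*. For *Hbegf* the log2 fold change was -0.10 (SE 0.33, adjusted p = 0.948). It was -0.26 without FA diet + fluoxetine dam 4 and 0.016 without FA diet + saline dam 1. Its sign thus was not steady, and 5 of 15 dams were above the saline median of their diet. *Tgfa* was above that median in 10 of 15 fluoxetine dams and *Btc* in 8 of 15.

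**Figure D2:**
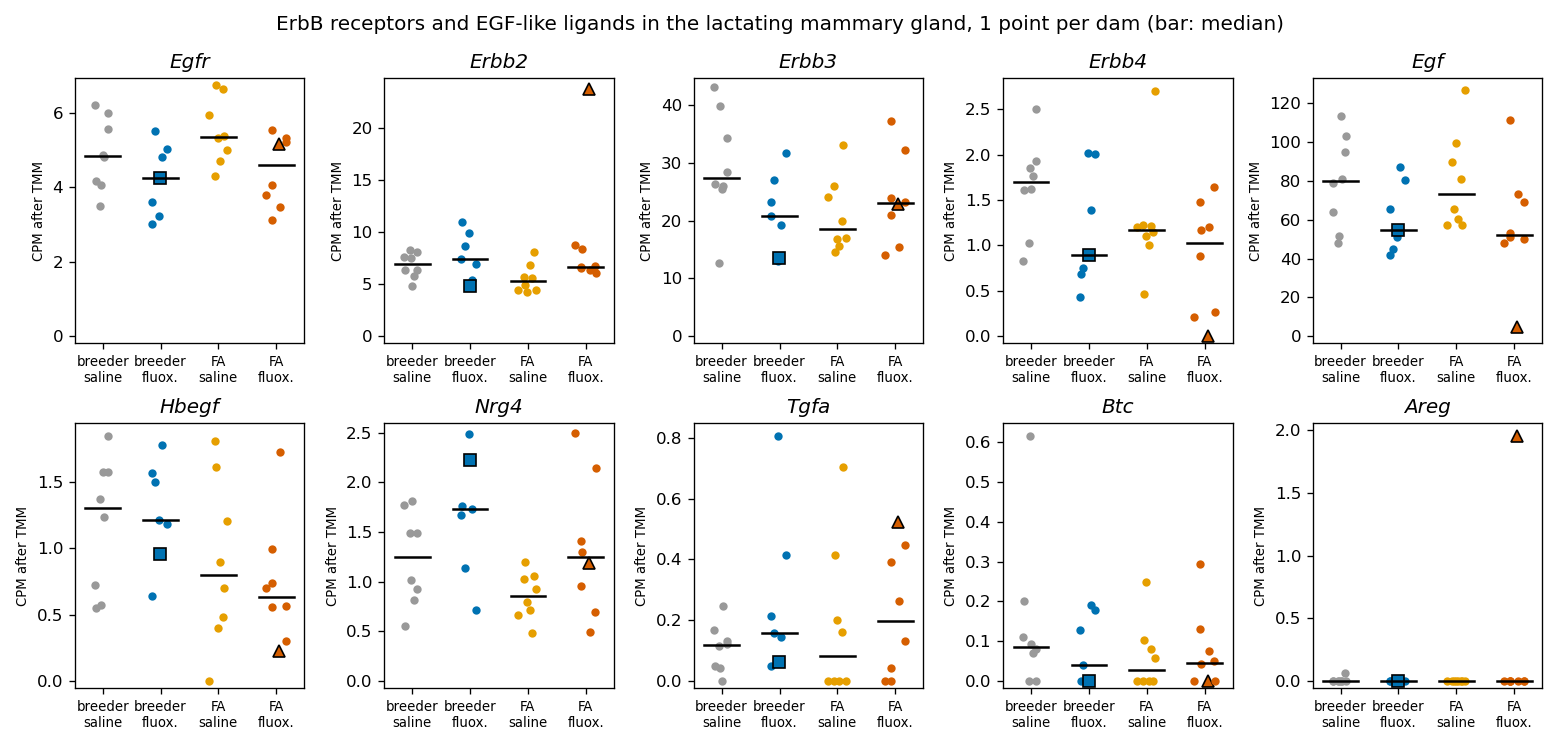
CPM after TMM of the 10 genes, 1 point per dam, by diet and drug, with the group median as a bar; the triangle is FA diet + fluoxetine dam 3 and the square breeder diet + fluoxetine dam 13. The groups overlap for all genes, and the triangle lies at 23.8 CPM for *Erbb2*, 4.72 CPM for *Egf* and 1.96 CPM for *Areg*.

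Genes that act with the ErbB receptors went both ways with fluoxetine. Of 72 genes in 7 lists (other ligands, sheddases and their control, receptor turnover and feedback, adaptors and Ras-MAPK, PI3K-AKT with PLC and STAT5, nuclear outputs, and hormone receptors and factors upstream of *Areg*), 66 were tested and 0 were called by edgeR with fluoxetine. With an unadjusted p ≤ 0.05, 4 were higher and 1 was lower, where 9.92% of all genes were at that p. Whatever the p, 30 of the 66 were higher and 36 lower. At that p, 4 were higher and 3 lower without both libraries that stood apart, where 9.47% of all genes were. *Rhbdf2*, which encodes a rhomboid-like protein that brings Adam17 to the cell surface, had a log2 fold change of 0.27 (SE 0.11). *Gata3*, a transcription factor of luminal cells, had 0.42 (SE 0.14), *Mapk3*, the ERK1 kinase gene, 0.31 (SE 0.14) and *Nras* 0.22 (SE 0.09). *Braf*, a kinase between Ras and MEK, had -0.36 (SE 0.13). Their adjusted p ran from 0.360 for *Gata3* to 0.478 for *Mapk3*. FA diet + fluoxetine dam 3 was the highest of all dams for *Gata3* with 72.4 CPM and for *Mapk3* with 70.1 CPM, and without that dam the *Mapk3* value was 0.12.

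Among the other sheddase genes, the fluoxetine values of *Timp3* and *Rhbdf1* changed sign without the libraries that stood apart. *Adam17* (median 1.54 TPM) had a log2 fold change of -0.06 (SE 0.08) and *Adam10* (7.42 TPM) one of -0.10 (SE 0.12). *Rhbdf1*, a relative of *Rhbdf2*, had 0.06 (SE 0.19) and *Bace1*, a protease that can cut neuregulins, had -0.19 (SE 0.16). *Timp3*, the inhibitor of Adam17, had 0.12 (SE 0.31) and reached 26.2 CPM in FA diet + fluoxetine dam 3 against a median of 3.49 CPM over all dams. Its value was -0.46 (SE 0.19) without both libraries that stood apart, and that of *Rhbdf1* was -0.07.

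FA diet was accompanied by lower average *Hbegf* and *Nrg4*, again short of FDR 10%. With FA, 0 of the 7 members tested and 0 of 14362 genes (0%) were called by edgeR. With an unadjusted p ≤ 0.05 there were 0 members, against 729 genes (5.08%). DESeq2 called 0 members and 0 genes, with 1 member, *Hbegf*, and 969 of 29436 genes (3.29%) at that unadjusted p. Again the DESeq2 share includes low-count genes, while its members at that p were counted among the 7 past the filter. The likelihood ratio test called 0 members and 0 genes, with 0 members and 703 of 14362 genes (4.89%) at that p. Without both libraries that stood apart there was 1 member at that p, *Erbb2*, with a log2 fold change of -0.27, against 1045 of 14401 genes (7.26%). The median log2 fold change was -0.17 over the 7 members and 0.02 over all genes tested.

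*Hbegf* lay at 0.554, 1.30 and 1.85 CPM in breeder diet + saline and at 0, 0.799 and 1.81 CPM in FA diet + saline. With fluoxetine it lay at 0.643, 1.21 and 1.78 CPM on breeder diet and at 0.227, 0.635 and 1.73 CPM on FA diet. Only 3 of 16 FA dams were above the breeder median of their drug, and the dam at 0 was FA diet + saline dam 10. The log2 fold change with FA was -0.60 (SE 0.33, 95% CI -1.26 to 0.07, adjusted p = 0.933). *Nrg4* had -0.42 (SE 0.23, 95% CI -0.88 to 0.04, adjusted p = 0.933), and 2 of 16 FA dams were above the breeder median of their drug. All 8 FA diet + saline dams lay below the breeder diet + saline median of *Nrg4*, with overlapping ranges.

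For *Egf* the FA log2 fold change was -0.04 (SE 0.22), with 7 of 16 FA dams above the breeder median of their drug, and it was -0.14 without FA diet + fluoxetine dam 2. Among the receptors it was 0.13 for *Egfr* (SE 0.12, 10 of 16 dams), -0.17 for *Erbb3* (SE 0.16, 7 of 16; -0.10 without breeder diet + fluoxetine dam 6) and -0.42 for *Erbb4* (SE 0.35, 5 of 16). *Erbb2* had -0.03 (SE 0.17), although 4 of 16 FA dams were above the breeder median of their drug. Without FA diet + fluoxetine dam 3 the *Erbb2* value was -0.22, so that library set the average. *Tgfa* was above the breeder median in 8 of 16 FA dams and *Btc* in 7 of 16.

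In the pathway lists, 0 of the 66 genes tested were called by edgeR with FA. With an unadjusted p ≤ 0.05, 2 were higher and 2 were lower, where 5.08% of all genes were at that p. These counts were 2 and 5 without both libraries that stood apart, where 7.26% of all genes were at that p. *Myc*, a growth-related transcription factor, had a log2 fold change of 0.50 (SE 0.23) and *Hras* one of 0.17 (SE 0.08). *Rhbdf2* had -0.32 (SE 0.11) and *Pik3r3*, a regulatory subunit of PI3K, -0.34 (SE 0.17). The adjusted p of each of these 4 genes was 0.933. *Rhbdf2* was thus the only gene of these lists at that unadjusted p with both fluoxetine and FA, with opposite signs of the log2 fold change. Its medians were 12.2 CPM with saline and 15.5 CPM with fluoxetine on breeder diet, and 9.95 and 13.0 CPM on FA diet.

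The interaction asks whether the fluoxetine difference was the same on both diets. Of the 7 members past the filter, *Erbb3* had the lowest unadjusted p, with less transcript under fluoxetine on breeder diet and slightly more on FA diet. By edgeR 0 of the 7 members and 0 of 14362 genes (0%) were called. With an unadjusted p ≤ 0.05 there was 1 member, *Erbb3*, against 552 genes (3.84%). DESeq2 and the likelihood ratio test each called 0 members and 0 genes. In both, *Erbb3* was the 1 member at that unadjusted p, against 788 of 29436 genes (2.68%) and 558 of 14362 genes (3.89%). Here too the DESeq2 share includes low-count genes, while its members at that p were counted among the 7 past the filter. Without both libraries that stood apart there were 0 members at that p, against 457 of 14401 genes (3.17%), and the *Erbb3* value was 0.58. The median log2 value was -0.06 over the 7 members and 0.03 over all genes tested.

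*Erbb3* lay at 12.6, 27.3 and 43.1 CPM in breeder diet + saline and at 12.9, 20.7 and 31.7 CPM in breeder diet + fluoxetine. On FA diet it lay at 14.6, 18.4 and 33.1 CPM with saline and at 14.1, 23.0 and 37.2 CPM with fluoxetine. On breeder diet, 6 of 7 fluoxetine dams were below the saline median, while on FA diet 6 of 8 were above it, and the ranges overlapped on both diets. The log2 fold change with fluoxetine was -0.48 (SE 0.23) on breeder diet and 0.18 (SE 0.22) on FA diet, and the interaction was 0.66 (SE 0.32, 95% CI 0.01 to 1.31, adjusted p = 0.977). The FA difference without the drug was -0.50 (SE 0.22), as 7 of 8 FA diet + saline dams were below the breeder diet + saline median.

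For *Erbb2* the interaction was 0.56 (SE 0.33, adjusted p = 0.977), but 0.16 without FA diet + fluoxetine dam 3. The other receptors had -0.09 for *Egfr* (SE 0.23) and -0.06 for *Erbb4* (SE 0.70). Among the ligands it was -0.08 for *Egf* (SE 0.45), -0.39 for *Hbegf* (SE 0.66) and 0.19 for *Nrg4* (SE 0.45). Leaving out 1 dam moved each of these 5 values more than 1.5 times, such as to -0.01 without breeder diet + fluoxetine dam 5 for *Egfr*, -0.26 without FA diet + fluoxetine dam 1 for *Erbb4*, -0.29 without FA diet + fluoxetine dam 2 for *Egf*, -0.71 without FA diet + fluoxetine dam 4 for *Hbegf* and -0.0022 without FA diet + fluoxetine dam 6 for *Nrg4*. Over the 31 fits that each left out 1 dam, the sign changed in 8 for *Erbb4*, 3 for *Egf* and 1 for *Nrg4*. The intervals were wide: the 95% CI for *Erbb4* ran from -1.48 to 1.36.

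Of the 66 pathway genes tested for the interaction, 0 were called by edgeR, while 4 were higher and 0 lower with an unadjusted p ≤ 0.05, where 3.84% of all genes were at that p. They were 2 and 0 without both libraries that stood apart, where 3.17% of all genes were at that p. The median log2 value of the 66 was 0.14, against 0.03 over all genes tested. *Fos*, an immediate early gene, had an interaction of 1.76 (SE 0.62) on the log2 scale, with medians of 10.4 and 7.46 CPM for saline and fluoxetine on breeder diet and 13.1 and 20.0 CPM on FA diet. *Etv5*, an ETS transcription factor induced by Ras-MAPK signalling, had 1.71 (SE 0.72), with medians of 4.71, 3.70, 3.27 and 6.72 CPM in the same order. *Spred1*, an inhibitor of the Ras-MAPK cascade, had 0.94 (SE 0.42) and 0.56 without FA diet + fluoxetine dam 3, where it reached 15.7 CPM. *Pik3r2*, a regulatory subunit of PI3K, had 0.55 (SE 0.22). The adjusted p of each of these 4 genes was 0.977.

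Within groups, *Egf* moved with *Erbb4* and against *Erbb2* from dam to dam. Correlations were computed over the 31 dams on log2 CPM after subtracting group means, for 91 relations among the 7 members past the filter, the marker lists and library measures. For 4 relations both Pearson's r and Spearman's rho had a Benjamini-Hochberg adjusted permutation p of 0.05 or below. *Egf* and *Erbb2* had r = -0.78 (permutation p = 1e-05, the smallest the 100000 resamples can give, adjusted 0.00091) and rho = -0.63 (permutation p = 0.00022, adjusted 0.0179). *Egf* and *Erbb4* had r = 0.73 (permutation p = 7e-05, adjusted 0.00212) and rho = 0.56 (permutation p = 0.00116, adjusted 0.0264). Without the 2 dams farthest from the median of *Erbb2*, r for the former pair was -0.51, and without the 2 farthest in *Erbb4*, r for the latter was 0.53. Over the 29 dams left without both libraries that stood apart, r was -0.54 for *Egf* with *Erbb2* and 0.46 for *Egf* with *Erbb4*, with adjusted permutation p of 0.11 and 0.146. The signs thus did not rest on those libraries, whereas the passing of the threshold did.

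**Figure D3:**
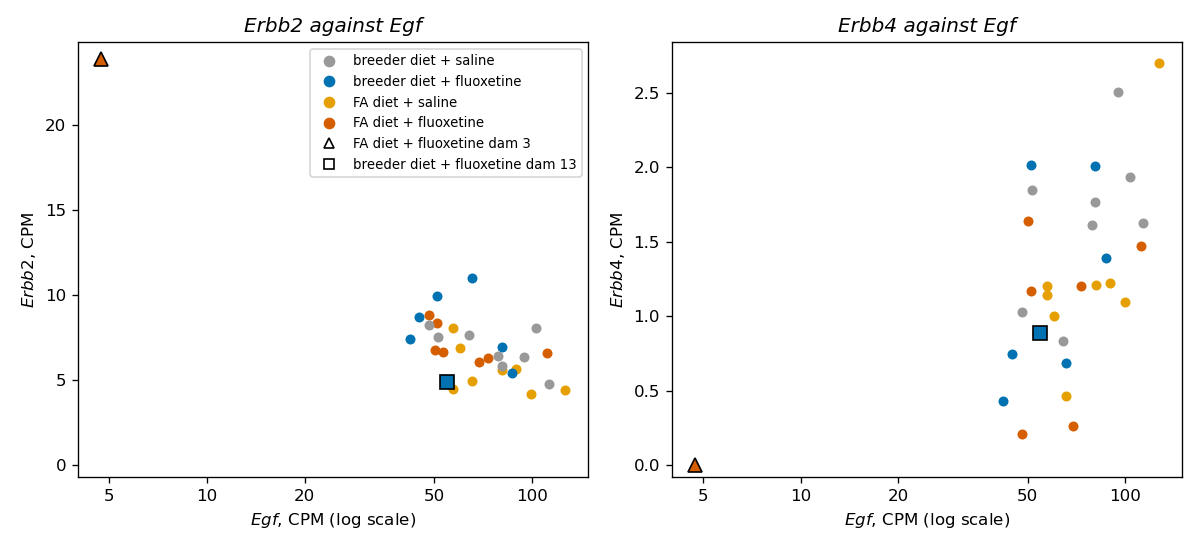
CPM of *Erbb2* (left) and *Erbb4* (right) against CPM of *Egf* on a log scale, 1 point per dam in the colour of its group; the triangle is FA diet + fluoxetine dam 3 and the square breeder diet + fluoxetine dam 13. Over all 31 dams after subtracting group means r was -0.78 on the left and 0.73 on the right, and the triangle lies far from the other dams in both panels.

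*Egf* also moved with the mean of the 8 secretory epithelium markers, with r = 0.83 (permutation p = 4e-05, adjusted 0.00182) and rho = 0.60 (permutation p = 0.00049, adjusted 0.0179). Without the 2 dams farthest in *Egf* r was 0.44, and without both libraries that stood apart it was 0.41 (adjusted permutation p = 0.233). *Erbb4* moved against the 3 nerve markers, with r = -0.60 (permutation p = 0.00044, adjusted 0.010) and rho = -0.59 (permutation p = 0.00059, adjusted 0.0179). *Sox10* made up most of the summed CPM of that list, with a median of 81.4 CPM. It is also transcribed in mammary epithelial cells, so the list does not stand for nerve alone. The part of each marker in this correlation was not tested. Without the 2 dams farthest in *Erbb4* r was -0.47, as it was without both libraries that stood apart (adjusted permutation p = 0.146).

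For 7 more relations the adjusted permutation p was 0.05 or below for r alone. *Nrg4* and the adipocyte markers had r = 0.50 (permutation p = 0.00389, adjusted 0.0354) and rho = 0.50 (permutation p = 0.00446, adjusted 0.0676). Here r was 0.37 without the 2 dams farthest in *Nrg4* and 0.54 without both libraries that stood apart (adjusted permutation p = 0.11). The other 6 were weaker without those libraries. *Erbb4* and the secretory markers had r = 0.64 (permutation p = 0.00147, adjusted 0.0268) and rho = 0.46 (permutation p = 0.010, adjusted 0.114), with r = 0.26 without the 2 dams farthest in *Erbb4* and 0.25 without both libraries. For *Erbb4* and the macrophage markers r was -0.63 (permutation p = 0.00177, adjusted 0.0268) and rho -0.37 (permutation p = 0.0431, adjusted 0.280), with r of -0.20 in both of these smaller sets. For *Erbb4* and the fibroblast markers r was -0.60 (permutation p = 0.00284, adjusted 0.0326) and rho -0.32 (permutation p = 0.0766, adjusted 0.401), with r of -0.14 in both.

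*Erbb2* and *Erbb4* had r = -0.55 (permutation p = 0.00348, adjusted 0.0352) and rho = -0.32 (permutation p = 0.0826, adjusted 0.401), with r = -0.24 without the 2 dams farthest in *Erbb2* and -0.21 without both libraries that stood apart. For *Erbb2* and the secretory markers r was -0.64 (permutation p = 0.0052, adjusted 0.0430) and rho -0.35 (permutation p = 0.0533, adjusted 0.303), with r of -0.11 and -0.38 in these smaller sets. *Egf* and the share of counts in the 20 most abundant genes had r = 0.75 (permutation p = 0.00287, adjusted 0.0326) and rho = 0.30 (permutation p = 0.101, adjusted 0.440), with r = 0.20 without the 2 dams farthest in *Egf* and 0.04 without both libraries.

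The genes whose pattern was most like that of each member were taken by Spearman's rho among 10787 protein-coding genes, over the 31 dams after subtracting group means. For *Egf* they were *Ubxn2a* (rho = 0.90), *Retreg1* (0.88), which encodes a receptor for autophagy of the endoplasmic reticulum, and *Slc31a1* (0.86), the copper importer gene. For *Erbb2* they were *Fchsd1* (0.83), *Tnni3* (0.78) and *Nrp1* (0.78), and for *Erbb3* they were *Ypel2* (0.83), *Rpain* (0.81) and *A630023A22Rik* (0.79). Without both libraries that stood apart, the lowest of these 9 values was 0.736, for *Fchsd1*. *Erbb4* was most like *Nup98* (0.72), *Limd1* (0.70) and *Snn* (0.70), and *Egfr* most like *Ppm1a* (0.71), *Phf13* (0.68) and *Spin1* (0.67). *Hbegf* was most like *Slc1a3* (0.64), *Ppard* (0.62) and *Hps6* (0.61). For *Nrg4*, *Fmo1* (0.66) and *Vps8* (0.65) were the most alike. Among the genes named for *Erbb4*, *Egfr*, *Hbegf* and *Nrg4*, the lowest value without both libraries was 0.53, for *Hps6*.

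The marker lists were compared between the groups. Their sums are transcript levels and do not measure tissue makeup, and the part of tissue makeup in the ErbB values was not tested. The 8 secretory markers summed to medians of 481430 CPM with saline and 496348 CPM with fluoxetine on breeder diet, and 551884 and 523500 CPM on FA diet. The 7 myoepithelial markers, led by *Acta2*, had medians of 412, 308, 463 and 379 CPM in the same order. With fluoxetine 3 of these 7 were lower, and with FA 3 were higher, with an unadjusted p ≤ 0.05 (9.92% and 5.08% of all genes), and 0 were called. The adipocyte markers, led by *Fabp4*, had medians of 344, 398, 422 and 389 CPM, and the fibroblast markers, led by *Col3a1*, 126, 126, 145 and 104 CPM. Which way the fibroblast and macrophage markers went depended on the libraries that stood apart. With all dams, 6 of 6 fibroblast markers were higher with FA (median log2 fold change 0.55, 2 with an unadjusted p ≤ 0.05) and 4 of 6 with fluoxetine (median 0.07). Without both libraries, 4 of 6 were higher with FA (median 0.07, 0 at that p) and 6 of 6 lower with fluoxetine (median -0.52, 5 at that p, where 9.47% of all genes were), and 0 were called. Of 5 macrophage markers, 4 were higher with FA (median 0.36) and 5 with fluoxetine (median 0.33, 1 at that p), but 2 and 1 without both libraries (medians near 0 and of -0.12). In the interaction, 6 of 6 fibroblast markers were higher with all dams (median 0.41, 0 at that p). Without both libraries 6 of 6 were lower (median -0.58, 2 at that p, where 3.17% of all genes were). Macrophage markers went from 3 of 5 higher (median 0.14, 1 higher at that p) to 1 of 5 (median -0.73, 1 lower at that p). Secretory markers were lower with fluoxetine for 7 of 8 and, without both libraries, for 5 of 8. With an unadjusted p ≤ 0.05, 1 was higher and 0 were lower with all dams, and 0 were at that p without both libraries. The lists of endothelium (led by *Kdr*; 34.1, 40.9, 37.4 and 44.1 CPM), macrophages (*Lyz2*; 24.1, 24.0, 27.8 and 20.8 CPM) and nerve (*Sox10*; 90.2, 98.8, 82.7 and 71.5 CPM) had medians within 1.5 times of each other. Lymphocyte markers (*Ptprc*; 4.88, 4.10, 4.28 and 4.36 CPM) and neutrophil markers (*Csf3r*; 0.978, 1.47, 0.805 and 1.03 CPM) were low in every group. Skeletal muscle markers, led by *Myh4*, had medians of 306, 156, 119 and 18.02 CPM and varied most, from 0.651 to 5553 CPM within breeder diet + fluoxetine alone. In the interaction 5 of 5 were lower (median log2 value -1.90), 0 of them with an unadjusted p ≤ 0.05.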

How the data were processed

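The deposited files held raw read counts per Ensembl gene, made by the authors with FastQC 0.11.7, Trim Galore 0.4.4, HISAT2 and HTSeq on GRCm39 according to the submitters' processing notes; the strand option was not given in the sources used here. Symbols and lengths came from GENCODE, which held 54712 of the 55379 genes. TPM used the union of exons. edgeR 4.0.16 (filterByExpr by group, which kept 14362 genes, TMM, robust quasi-likelihood test) fitted 1 mean per group over all 31 dams, with contrasts for fluoxetine and for FA averaged over the other factor and for their interaction, and FDR 10% by Benjamini-Hochberg over all genes tested. The fit was tested on simulated data. Log2 CPM for correlations had a prior count of 2, and tests used 100000 two-sided permutations (Python 3.11.15, scipy 1.17.1). Alternatives were the likelihood ratio test, DESeq2 1.42.0, other filters and scalings, effects within a diet or drug, the animal number as a block, and leaving out dams. Named are all members, other ligands and sheddases, pathway genes at an unadjusted p ≤ 0.05, the most abundant gene of each marker list, and up to 3 genes most alike each member. Members and lists were chosen with earlier results of these data known.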

Additional observations from a re-analysis of the deposited data

Results flagged for a closer look

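A dam was singled out where its gap to the nearest dam of its group was large against the range of the group (Dixon's criterion at 95%). Of 88 groups of values examined, 15 held such a dam, where chance gives about 1 in 20. For *Areg*, which gave 2 of the 15, all other dams of the group were at 0, so any count is singled out. FA diet + fluoxetine dam 3 accounted for 7 of them. It had 23.8 CPM of *Erbb2* (next highest of its group 8.81 CPM), 4.72 CPM of *Egf* (next lowest 48.2 CPM) and 1.96 CPM of *Areg* (the other dams of its group at 0). In the same library the 20 most abundant genes held 39.3% of counts, secretory epithelium markers summed to 39989 CPM, fibroblast markers to 937 CPM and macrophage markers to 158 CPM. These values moved together in 1 gland, and what part the tissue makeup had in its ErbB transcripts was not tested.

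Breeder diet + fluoxetine dam 13 was singled out for a 20-gene share of 60.5% and for 215273 CPM of secretory epithelium markers. FA diet + saline dam 3 was singled out for the same measures, with 70.1% and 321210 CPM. Among the members, breeder diet + saline dam 4 was low for *Erbb3* with 12.6 CPM (next lowest 25.4 CPM), FA diet + saline dam 10 was low for *Hbegf* with 0 CPM (next lowest 0.399 CPM), and breeder diet + saline dam 2 was high for *Areg* with 0.066 CPM, which was a single count. Endothelium markers were low in FA diet + fluoxetine dam 1 with 23.9 CPM.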

How the results depend on the processing

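The number of members called stayed at 0 for fluoxetine, FA and the interaction under every alternative run, and so did the number of genes called for FA and the interaction. For fluoxetine the number of genes called was 3 in the quasi-likelihood test, 45 in the likelihood ratio test, 79 with DESeq2, 1 with no filter, 0 within breeder diet alone and 0 within FA diet alone, and it ran from 0 without breeder diet + fluoxetine dam 8 to 19 without breeder diet + saline dam 4. The cause was not tested.

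Of 196 log2 values of the members under the alternatives that kept all dams or left out both libraries that stood apart, a set chosen after seeing the data, 185 kept their direction and their side of the threshold. Within a single level of the other factor, the reversed values were 0.0937 for *Hbegf* with fluoxetine on breeder diet, 0.18 for *Erbb3* with fluoxetine on FA diet, 0.0056 for *Egf* with FA under saline, and 0.25 for *Erbb2* and 0.16 for *Erbb3* with FA under fluoxetine. Without both libraries that stood apart they were 0.0309 for *Egf* with FA, and 0.0856 for *Erbb4* and 0.0686 for *Egf* in the interaction. Leaving out 1 dam at a time, log2 values that changed sign ran from -0.26 to 0.0161 for *Hbegf* with fluoxetine, from -0.22 to 0.0242 for *Erbb2* and -0.14 to 0.046 for *Egf* with FA, and from -0.26 to 0.18 for *Erbb4*, -0.29 to 0.0814 for *Egf* and -0.0022 to 0.31 for *Nrg4* in the interaction. None of these values passed FDR 10%, and the cause was not tested. All 122 values of the pathway genes at an unadjusted p ≤ 0.05 kept their direction.

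Dams of different groups share animal numbers, but the numbers did not clearly pair them. The correlation of their deviations from group means ran from -0.22 to 0.43 over 28 pairs, 12 of them above 0.1. Its median was 0.079, against -0.007 over the 332 pairs with different numbers. Of 27 dams, 4 were most like a dam of their own number. With the animal number as a replicate block, fluoxetine had 0 genes called, and *Egf* had 0.13 with FA and 0.15 in the interaction, where *Erbb4* had 0.0196; at an unadjusted p ≤ 0.05 were then *Erbb2* and *Egf* with fluoxetine (967 of 14362 genes, 6.73%) and 0 members in the interaction (446 genes, 3.11%). Low counts limit *Erbb4*, *Hbegf* and *Nrg4*, and *Areg*, *Tgfa* and *Btc*, which the low-count filter removed, were not called with no filter either.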

Other observations

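Hormone receptors and factors that act upstream of *Areg* were transcribed in these glands, the progesterone receptor at a low level. *Esr1*, the estrogen receptor gene, had a median of 15.3 CPM, *Prlr*, the prolactin receptor gene, 30.8 CPM and *Gata3* 31.6 CPM. *Foxa1* had 0.425 CPM and *Pgr*, the progesterone receptor gene, 0.149 CPM. The highest *Pgr* value, 0.909 CPM, lay in FA diet + fluoxetine dam 3, the gland that held 112 of the 113 *Areg* counts. *Esr1* was at 10.7 CPM in that gland, where the lowest dam had 9.82 CPM. Its *Prlr* value of 12.3 CPM was the lowest of all dams. Across the 66 pathway genes past the filter, it was the highest of the 31 dams for 16 genes and the lowest for 14. No such count is given for all genes, so these counts do not set the pathway genes apart.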
